A study of Mus musculus with 4 samples.

Results

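7SL RNA is the RNA core of the signal recognition particle (SRP), and the mouse annotation gives 3 genes by symbol for it, Rn7s1, Rn7s2 and Rn7s6. The 3 were found by symbol among 47069 gene IDs. All 3 had counts in every library and passed the filter on low counts. The libraries came from Lewis lung carcinoma, an established mouse lung carcinoma line, grown as tumours under the skin of C57BL/6 mice for 3 weeks. The exosome group was 2 libraries of RNA from vesicles that cut tumour pieces released over 12 h into RPMI without serum, passed through a 0.2 µm filter and collected by precipitation, without ultracentrifugation. The tumour group was 2 libraries of RNA from the primary tumour itself. Both groups share the mouse strain and the inoculated line, and the labels give no genetic change or drug for either. The labels do not say how many mice stood behind a library, how old they were, or whether a group's libraries came from separate tumours. The spread behind each p-value is therefore that between libraries, and it may be technical. A grown tumour holds host cells beside the carcinoma cells, and the vesicles were collected from whole tumour pieces. The series was made to examine how gene signatures of exosomes depart from those of the primary tumour.

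The signal recognition particle binds the signal peptide of a nascent secreted or membrane protein, slows its translation and brings the ribosome to the translocon in the endoplasmic reticulum. Its RNA is made by RNA polymerase III, is long-lived and folds into an Alu domain, formed by its 5′ and 3′ ends and bound by SRP9 and SRP14, and an S domain that carries the other proteins. 7SL RNA is an abundant cytoplasmic RNA and is often found in extracellular vesicles. Mouse B1 repeats descend from its Alu domain, so pieces of the sequence recur across the genome.

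The annotated copies differ in how much of the full RNA they hold. Rn7s1 (ENSMUSG00000099021, chromosome 12, 300 bases) and Rn7s2 (ENSMUSG00000099250, chromosome 12, 300 bases) are identical over their whole length in the GENCODE M21 transcripts. Rn7s6 (ENSMUSG00000092746, chromosome 6, 291 bases) aligns to Rn7s1 over 214 bases at 98.6% identity, and its last 77 bases do not align. Gm26461 (ENSMUSG00000092805, chromosome 9, 290 bases), which bears no 7SL symbol and was added after its counts were seen, aligns over 201 bases at 96.5%, and its last 89 bases do not align. Rn7s6 was thus the closer match base by base, while Gm26461 shares the first 104 bases of Rn7s1 without a change and Rn7s6 the first 7. All 4 loci are annotated as misc_RNA, a class for short noncoding RNAs outside the other small RNA classes. Gm26461 lies inside an intron of Zfp949, a zinc finger gene on the same strand, which had 3 counts in 1 tumour library and 0 in the other 3 libraries. The nearest gene to Rn7s1, 108 bases away on the opposite strand, is Rps29, a ribosomal protein gene with 3 and 3 exosome counts and 41 and 27 tumour counts. Loci of miRNA biotype annotated within the members, Gm47295 and Gm47287 in Rn7s1, Gm47299 and Gm47305 in Rn7s2 and Gm47304 in Rn7s6, were listed at 0 in all 4 libraries.

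The exosome libraries held 305751 and 217201 gene counts and the tumour libraries 14543691 and 10849811, so 1 count equals 3.27 or 4.60 CPM (the count scaled to a common library total) in exosomes. Outside snoRNA, snRNA, small Cajal body RNA, rRNA and ribozyme genes, 21042 and 17500 exosome counts and 783515 and 503434 tumour counts remained. The ribozyme class holds the RNAs of RNase P (Rpph1) and RNase MRP (Rmrp). The 6 carcinoma and epithelium markers were Cdh1, Epcam, Krt8, Krt18, Krt19 and the mesenchymal gene Vim, so their sum is not one of epithelium alone. Cdh1, Epcam and Krt19 were at 0 in all 4 libraries, and the list summed to 87.5 to 111 CPM in exosomes and 7.83 to 11.4 CPM in tumour. The 5 erythroid markers summed to 268 to 483 CPM in exosomes and 81.2 to 114 CPM in tumour, the 5 macrophage and monocyte markers to 6.54 to 36.8 and 3.50 to 4.95 CPM, and the 4 fibroblast markers to 75.2 to 96.7 and 6.82 to 8.66 CPM. The 3 neutrophil markers (Ly6g at 0) summed to 49.1 to 50.6 and 0.922 to 3.71 CPM, the 3 endothelial ones to 9.81 to 18.4 and 0.737 to 0.963 CPM, and the 3 muscle ones (Ckm and Myh4 at 0) to 6.54 to 9.21 and 0.0922 to 0.756 CPM. The 3 T and natural killer cell markers had 1 count in all, with Cd3d and Cd3e at 0. Their part in the results was not tested.

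Rn7s1 and Rn7s2 were far more abundant in exosome RNA than in tumour RNA, while Rn7s6 was not called. Rn7s1 had 1209 and 905 exosome counts against 587 and 353 tumour counts, although the tumour libraries held far more gene counts. As a share of all gene counts this was 0.395% and 0.417% in exosomes against 0.00404% and 0.00325% in tumour, 0.406% ± 0.0150 against 0.00364% ± 0.000553 (SD, n = 2 each), a 111-fold ratio. The gap between the groups was many times the spread within either, but how many other genes part as far was not counted. On this same scale of library totals, 63.8% of the 1442 genes tested were called higher in exosomes. Their median log2 difference, exosomes minus tumour, was 2.75. Ranked by count among all genes, Rn7s1 stood 34th and 38th in the exosome libraries and 191st and 201st in tumour. Within the misc_RNA class it was 1st in both exosome libraries and 6th and 8th in tumour. In bulk RNA, a lower level cannot be told apart from fewer cells or vesicles that carry the transcript.

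Rn7s2, the second full copy, gave the same picture. It had 1183 and 872 exosome counts and 555 and 395 tumour counts, or 0.394% ± 0.0103 of exosome counts and 0.00373% ± 0.000124 of tumour counts (SD, n = 2 each), a 106-fold ratio. Per base of gene, the deposited FPKM (fragments per kilobase, scaled to library total) were 13181 and 13889 for Rn7s1 and 12897 and 13382 for Rn7s2 in exosomes. In tumour the FPKM were 135 and 108 for Rn7s1 and 127 and 121 for Rn7s2. Both copies were high in both exosome libraries and low in both tumour libraries.

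Counts split almost evenly between the identical copies. The share of Rn7s1 in the sum of Rn7s1 and Rn7s2 was 50.5% (exact Clopper-Pearson 95% interval 48.5 to 52.6) and 50.9% (48.6 to 53.3) in exosomes and 51.4% (48.5 to 54.3) and 47.2% (43.6 to 50.8) in tumour. Every interval includes an equal split, and these intervals cover counting error only, since PCR copies were not marked by molecular identifiers. A read from either copy matches both, and the rule by which multiply matching reads were assigned is not given in the sources used here, so the 2 loci cannot be told apart and are not separate evidence.

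The counts assigned to Rn7s6 differed from those of the full copies within the same libraries. Rn7s6 shares an exact stretch of 173 bases with Rn7s1, so its counts, and the ratios built on them, depend on the unstated rule for multiply matching reads. It had 26 and 29 exosome counts and 325 and 159 tumour counts, which is 0.00850% and 0.0134% of exosome counts and 0.00223% and 0.00147% of tumour counts. The mean shares were 0.0109% ± 0.00343 and 0.00185% ± 0.000544 (SD, n = 2 each), a 5.91-fold ratio where Rn7s1 had 111. Its FPKM were 292 and 459 in exosomes and 76.8 and 50.4 in tumour. On either scale Rn7s6 stood below Rn7s1 in every library, and most so in exosomes.

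**Figure D1:**
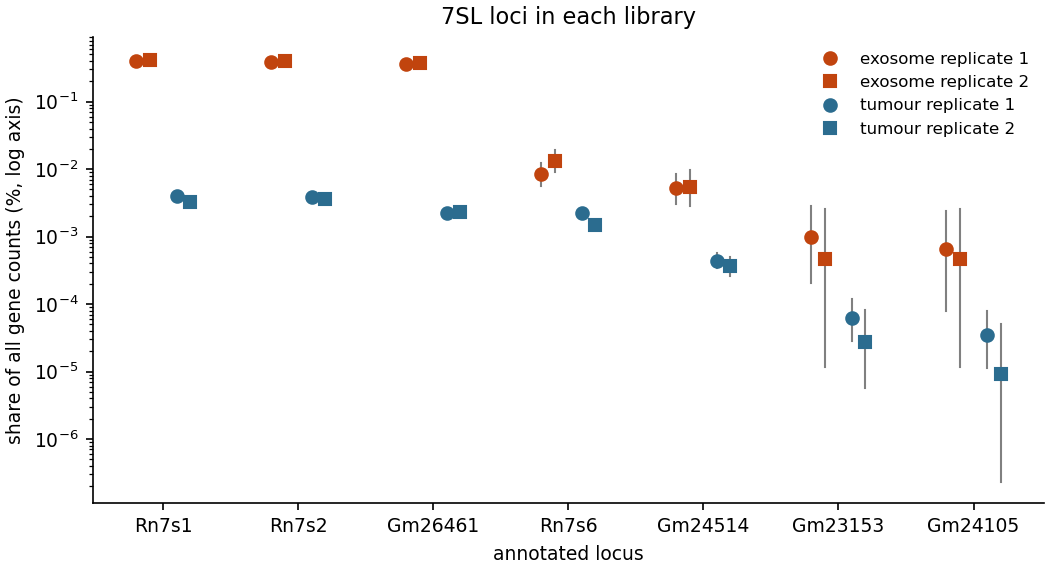
Share of all gene counts, in percent on a log axis, of 7 annotated 7SL loci in each of the 4 libraries. Points are single libraries, circles replicate 1 and squares replicate 2, with exact 95% intervals as bars; Rn7s1, Rn7s2 and Gm26461 lie between 0.366% and 0.417% in exosomes and at most at 0.00404% in tumour, and Rn7s6 lies between 0.00850% and 0.0134% in exosomes.

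The test was edgeR's quasi-likelihood test over all 1442 genes that passed the filter, with trimmed mean of M values (TMM) scaling, and differences are log2, exosomes minus tumour. By edgeR, Rn7s1 differed by 4.01 (SE 0.17, adjusted p 5.22e-07). Rn7s2 differed by 3.93 (SE 0.16, adjusted p 4.12e-07 by edgeR), so both were called higher in exosomes. Rn7s6 differed by −0.27 (SE 0.27, adjusted p 0.549 by edgeR) and was not called. Of the 3 members 2 were called, both higher, where 38% of all tested genes were called, 16% higher and 22.1% lower. The filter asked for 1.79 CPM in 2 libraries and 15 counts in all, and 1 count in each exosome library meets the CPM part. These shares thus cover a set of genes that leans to those counted in exosomes. By exact permutation, 2 libraries against 2 cannot give a two-sided p below 0.333, so single shares carry no test of their own.

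The size of these differences moved with the scaling. TMM put the median of all tested genes at 0.02, and scaling to library totals put it at 2.75, with 75.3% of genes called, 63.8% higher and 11.5% lower. Rn7s1 then differed by 6.80 and Rn7s2 by 6.72. With TMM factors from genes of at least 50 CPM, an alternative added after seeing the data, the median was −2.03, Rn7s1 differed by 1.89 and Rn7s2 by 1.82. Leaving out tumour replicate 1 gave 1.89 for Rn7s1 and 1.69 for Rn7s2, and leaving out tumour replicate 2 gave 1.65 and 1.69. Both stayed called and positive in 15 of 15 alternatives, 3.14 to 6.05 above the median of all genes for Rn7s1 and 2.83 to 5.96 above it for Rn7s2.

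For Rn7s6 the sign itself turned with the scaling. With library totals it differed by 2.52 (adjusted p 1.82e-08 by edgeR), which is below the median of all genes under that scaling. With TMM factors from genes of at least 50 CPM it differed by −2.38 (adjusted p 0.000117 by edgeR). Without tumour replicate 1 or 2 it differed by −2.20 or −2.74, with adjusted p 0.00556 or 0.00123 by edgeR. It was called in 6 of 15 alternatives, with either sign among the calls.

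**Figure D2:**
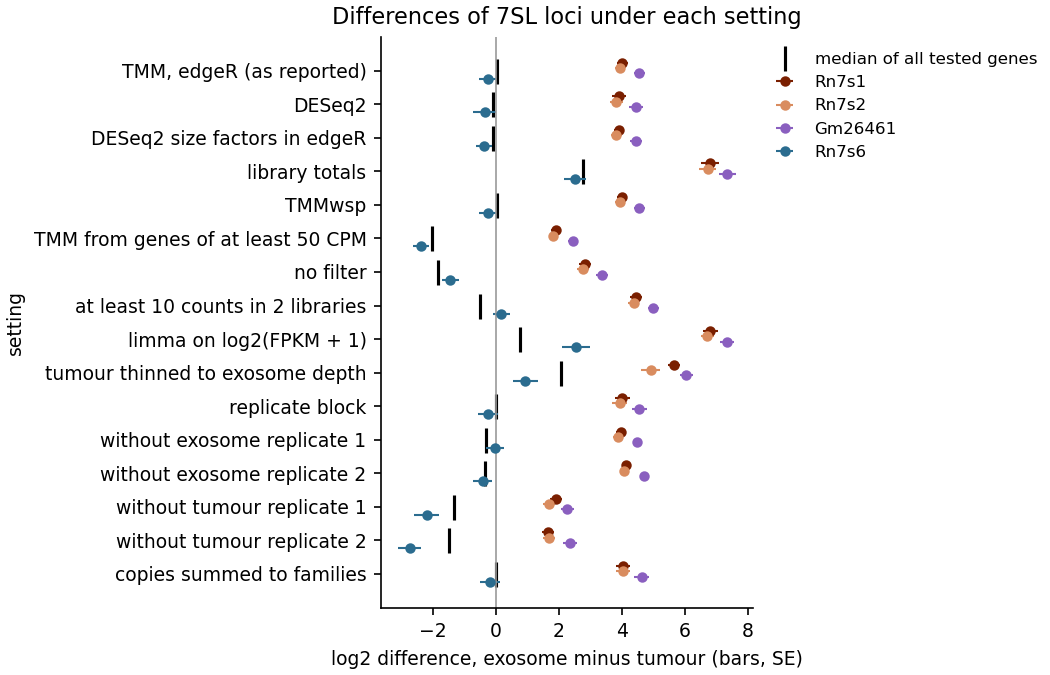
Log2 differences, exosome minus tumour, of Rn7s1, Rn7s2, Gm26461 and Rn7s6 under the reported setting and 15 alternatives. Points are fitted differences, horizontal bars their SE and black marks the median of all tested genes; Rn7s1 ranges from 1.65 to 6.80 and Rn7s6 from −2.74 to 2.54.

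Ratios within a library need no scaling, and there the members parted. Rn7s1 had 46.5 and 31.2 counts for each Rn7s6 count in exosomes and 1.81 and 2.22 in tumour. Rn7s6 made up 1.08% (exact 95% interval 0.704 to 1.57) and 1.61% (1.08 to 2.30) of the summed counts of the 3 members in exosomes. In tumour it made up 22.2% (20.1 to 24.4) and 17.5% (15.1 to 20.2). The means were 1.34% ± 0.375 in exosomes and 19.8% ± 3.27 in tumour (SD, n = 2 each). On the log2 scale, the ratio of Rn7s6 to Rn7s1 was −5.54 and −4.96 in exosomes and −0.85 and −1.15 in tumour, a difference of −4.25. The gap between the fitted differences of Rn7s1 and Rn7s6 ranged from 3.99 to 4.71 over the same 15 alternatives.

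The counts assigned to Gm26461 lay near those of the full copies. They too depend on how multiply matching reads were assigned, so they may not be the level of that locus itself. It had 1118 and 816 exosome counts and 330 and 249 tumour counts, or 0.371% ± 0.00709 and 0.00228% ± 1.83e-05 of all counts (SD, n = 2 each), a 162-fold ratio. Its FPKM were 12609 and 12955 in exosomes, close to those of Rn7s1 and Rn7s2, and 78.2 and 79.1 in tumour, below theirs. The fitted difference was 4.55 (SE 0.17, adjusted p 2.71e-07 by edgeR), and it was called and positive in 15 of 15 alternatives. Its log2 ratio to Rn7s1 was −0.11 and −0.15 in exosomes and −0.83 and −0.50 in tumour. Of the counts of Rn7s1, Rn7s2, Rn7s6 and Gm26461 together, it held 31.6% and 31.1% in exosomes and 18.4% and 21.5% in tumour.

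**Figure D3:**
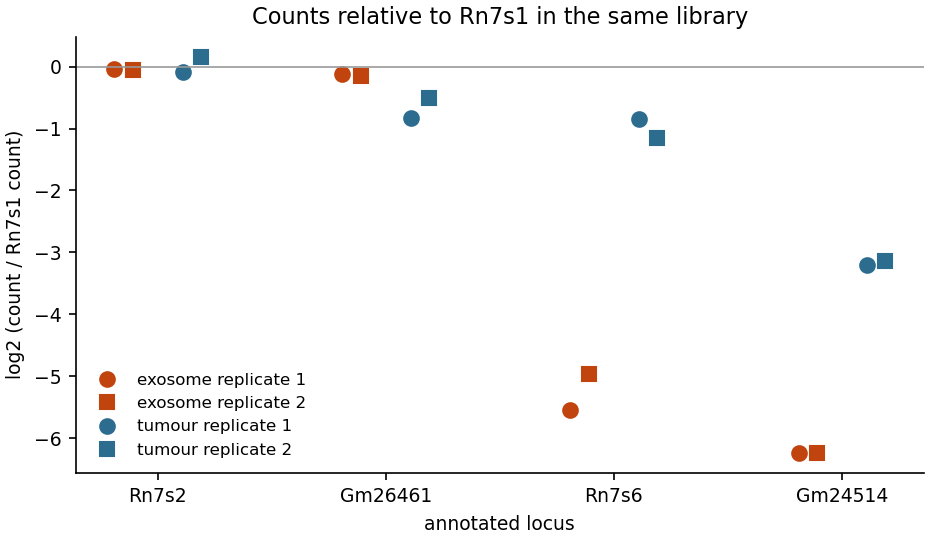
Log2 ratio of the counts of 4 loci to those of Rn7s1 in the same library, with 1 point a library. Rn7s2 stays within −0.08 and 0.16 of Rn7s1 in all 4 libraries and Gm26461 within −0.15 and −0.11 in exosomes, while Rn7s6 is at −5.54 and −4.96 in exosomes and −0.85 and −1.15 in tumour.

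Among the 7 loci in the plot of shares, the 3 loci with high exosome counts were those that share bases 1 to 104 of Rn7s1 exactly. The cut at base 104 is where the exact match of Gm26461 ends, and Gm26461 was added after its counts were seen. Rn7s1 and Rn7s2 are identical, so this grouping was set by the choice of cut and is no separate evidence. The others of these 7 match Rn7s1 exactly for only their first 7 bases (Rn7s6 and Gm24105), 4 bases (Gm23153) or 2 bases (Gm24514). Rn7s6 nonetheless shares 144 of the 271 stretches of 30 bases in Rn7s1, against 81 for Gm26461. The files give 1 count a gene and not where in the gene reads began or ended, so whether the counts come from the 5′ end was not tested.

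The weaker copies had few counts. Gm24514 had 16 and 12 exosome counts and 64 and 40 tumour counts, and its log2 ratio to Rn7s1 was −6.24 in both exosome libraries and −3.20 and −3.14 in tumour. Its fitted difference was 0.94 (SE 0.29, adjusted p 0.0391 by edgeR), a call kept in 7 of 15 alternatives and of the opposite sign in 4, among them −1.20 and −1.38 without tumour replicate 1 or 2. It lost its call under DESeq2, at 0.84 (adjusted p 0.133). Gm23153 (chromosome 1) had 3 and 1 exosome counts and 9 and 3 tumour counts, with a fitted difference of 1.22 (SE 0.73, adjusted p 0.305 by edgeR). Gm24105 (chromosome 5) had 2 and 1 exosome counts and 5 and 1 tumour counts and was not tested. Like Rn7s6, Gm24514 was much further below Rn7s1 in exosomes than in tumour.

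Summing pools copies that can share reads, although Gm26461 and Gm24514, which also share stretches with Rn7s1, stayed outside the sum. Rn7s1, Rn7s2, Rn7s6 and Gm24105 together had 2420 and 1807 exosome counts and 1472 and 908 tumour counts. This was 0.791% (exact 95% interval 0.760 to 0.824) and 0.832% (0.794 to 0.871) of exosome counts and 0.0101% (0.00961 to 0.0107) and 0.00837% (0.00783 to 0.00893) of tumour counts. The mean shares of 0.812% ± 0.0286 and 0.00925% ± 0.00124 (SD, n = 2 each) stood 87.8-fold apart. The share was also taken outside snoRNA, snRNA, small Cajal body RNA, rRNA and ribozyme genes, the last with RNase P and RNase MRP RNA. There the sum was 10.9% ± 0.831 of exosome counts and 0.184% ± 0.00531 of tumour counts, a 59.3-fold ratio. The sum was higher by 3.73 (SE 0.21, adjusted p 3.07e-11 by edgeR) in a fit with small RNA families summed, where 34.5% of 1314 rows were called, 11.7% higher and 22.8% lower. It was positive in 16 of 16 alternatives, from 2.52 to 8.12, and differed by 4.21 with Gm26461 in place of Rn7s6, an alternative added after seeing the data. The sum differed by 7.01 with TMM factors from genes of at least 50 CPM and by 8.12 with thinned tumour libraries. In the fits of single genes, Rn7s1 had 1.89 and 5.64 there, so the size of the sum's difference depends on the scaling.

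Rn7s1 and Rn7s2 also took a larger part of their class in exosomes, and Rn7s6 a smaller one. All misc_RNA genes together took 1.47% and 1.59% of exosome counts and 0.110% and 0.105% of tumour counts. The 3 members held 53.9% and 52.2% of those class counts in exosomes and 9.13% and 7.94% in tumour. Rn7s6 alone held 0.580% and 0.839% in exosomes and 2.02% and 1.39% in tumour, so the pooled share was carried by Rn7s1 and Rn7s2. In exosomes the 3 members outnumbered the rest of the class, and in tumour they were a small part of it. The class had 16065 and 11426 tumour counts, of which Rn7sk held 5977 and 4393 and Rny1 4148 and 2747. In exosomes Rn7sk had 15 and 11 counts and Rny1 365 and 284, so the class shares also depend on these genes.

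Genes for the proteins that work with 7SL RNA were barely counted. The list held 45 genes of the SRP, its receptor, the Sec61 translocon, signal peptidase, oligosaccharyltransferase and RNA polymerase III, with Ssb, Xpo5 and Zpr1 besides. Of these, 43 were in the table, 42 had a count, 8 passed the filter, 0 were called higher and 2 lower, with a median difference of −0.55 against 0.02 for all tested genes. Over all tested genes 16% were called higher and 22.1% lower, so 2 of 8 lower is near the background. With library totals 3 were called higher and 0 lower, beside 63.8% and 11.5% of all tested genes, and without tumour replicate 1 or 2 no gene of the list passed the filter. The list summed to 26 and 25 counts in exosomes and 426 and 303 in tumour, which is 85.0 and 115 CPM against 29.3 and 27.9 CPM, higher in exosomes on that scale, and 18 of its genes were at 0 in both exosome libraries.

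The SRP protein genes come first. The 7 in the table summed to 4 and 6 exosome counts and 174 and 135 tumour counts, or 13.1 and 27.6 CPM against 12.0 and 12.4 CPM, and 2 were tested. Srp54c, a copy of the gene for the GTPase subunit that reads the signal peptide, had 1 and 2 exosome counts and 107 and 82 tumour counts. It was lower by edgeR, at −3.13 (SE 0.49, adjusted p 0.00127), but with library totals it was −0.37 with adjusted p 0.684. Its close paralog Srp54a had 3 and 0 against 38 and 35 counts and differed by −1.77 (SE 0.80, adjusted p 0.136 by edgeR). Counting could split reads between the 2 paralogs, so each is uncertain.

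At the translocon, Ssr3, a subunit of the translocon-associated complex, had 0 and 1 exosome counts and 42 and 25 tumour counts. It differed by −3.15 (SE 0.91, adjusted p 0.0283 by edgeR), was not called with library totals (−0.45) or DESeq2 (adjusted p 0.0714), and was not called without exosome replicate 1, at −2.04. Its partner Ssr1 had 1 and 1 against 14 and 15 counts (−1.02, adjusted p 0.453 by edgeR). Tram1, a membrane protein beside the channel, differed by 1.10 (adjusted p 0.357 by edgeR). The oligosaccharyltransferase subunits Rpn1, Rpn2 and Ddost differed by 0.80, 0.62 and −0.07, with adjusted p of 0.585, 0.585 and 0.968 by edgeR. None of these 5 was called, and with TMM factors from genes of at least 50 CPM the differences of Tram1, Rpn1 and Rpn2 were negative. Not tested were the channel subunit Sec61a1, with 0 and 0 exosome against 12 and 12 tumour counts, and its partner Sec62, with 0 and 0 against 26 and 10. The signal peptidase subunit Spcs3 had 0 and 0 against 13 and 10. Ssb, the La protein that binds fresh RNA polymerase III transcripts, had 2 and 0 against 19 and 11, and the nuclear export receptor Xpo5 had 0 and 1 against 19 and 4.

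Other structured noncoding RNAs did not all move with 7SL. Beside the 5S ribosomal RNA loci, 8 genes of the list were found by symbol, of which 7 were tested, 4 called higher and 3 lower. Others planned for the list, among them Bc1 and Rn18s, were not found by that symbol. Over all tested genes 16% were called higher and 22.1% lower. With library totals 5 of the 7 were called higher and 1 lower, beside 63.8% and 11.5% of all tested genes. RNase P RNA (Rpph1) had 85389 and 46908 exosome counts and 1783 and 1094 tumour counts and was higher by 8.34 (SE 0.33, adjusted p 3.48e-07 by edgeR). Rmrp, the RNA of RNase MRP, was higher by 5.98 (SE 0.22, adjusted p 2.74e-07 by edgeR), with 3346 and 2212 against 396 and 230 counts. Terc, the telomerase RNA, was higher by 4.47 (SE 0.22, adjusted p 1.34e-06 by edgeR), with 173 and 217 against 73 and 53 counts. Vaultrc5, a vault RNA, was higher by 3.20 (SE 0.14, adjusted p 5.22e-07 by edgeR), with 336 and 276 against 276 and 195 counts. The fitted differences of Rn7s1 and Rn7s2 lay between those of Vaultrc5 and Terc.

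The RNAs called lower included 7SK, which is made by the same polymerase as 7SL. Rn7sk, the nuclear RNA that keeps P-TEFb in an inactive state, had 15 and 11 exosome counts and 5977 and 4393 tumour counts and was lower, at −5.82 (SE 0.20, adjusted p 1.80e-07 by edgeR), also in all 15 alternatives. The Y RNA Rny3 had 18 and 13 against 1249 and 1216 counts (−3.52, SE 0.27, adjusted p 1.56e-05 by edgeR), and with library totals −0.74, no longer called. The Y RNA Rny1 had 365 and 284 against 4148 and 2747 counts (−0.58, SE 0.14, adjusted p 0.0118 by edgeR), a sign that turned to 2.21 with library totals. Rnu6, a U6 gene, had 0 and 1 against 4 and 5 counts and was not tested. Per base of gene, Rn7sk had FPKM of 148 and 153 in exosomes, far below those of Rn7s1, and of 1242 and 1223 in tumour, above those of Rn7s1.

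With 180 loci of 5S ribosomal RNA, a repeated RNA polymerase III gene, the genes found came to 188. Of these 57 were tested, 44 called higher and 10 lower, beside 16% and 22.1% of all tested genes. The median was 2.69 against 0.02 for all tested genes. With library totals 55 were called higher and 1 lower, beside 63.8% and 11.5% of all tested genes. The 5S loci gave 40 of the higher and 7 of the lower calls among 50 tested, and they are near-identical copies that can share reads. With copies summed to families, a row was counted only where its family kept the ID of a list gene. Of such rows 8 were tested and all 8 called, 6 higher and 2 lower, beside 157 higher and 305 lower among all 1315 rows tested. Rny1 was not among them, so this is not the whole list after summing. Without tumour replicate 2, 24 of 52 tested were called, in place of 54 of 57.

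**Figure D4:**
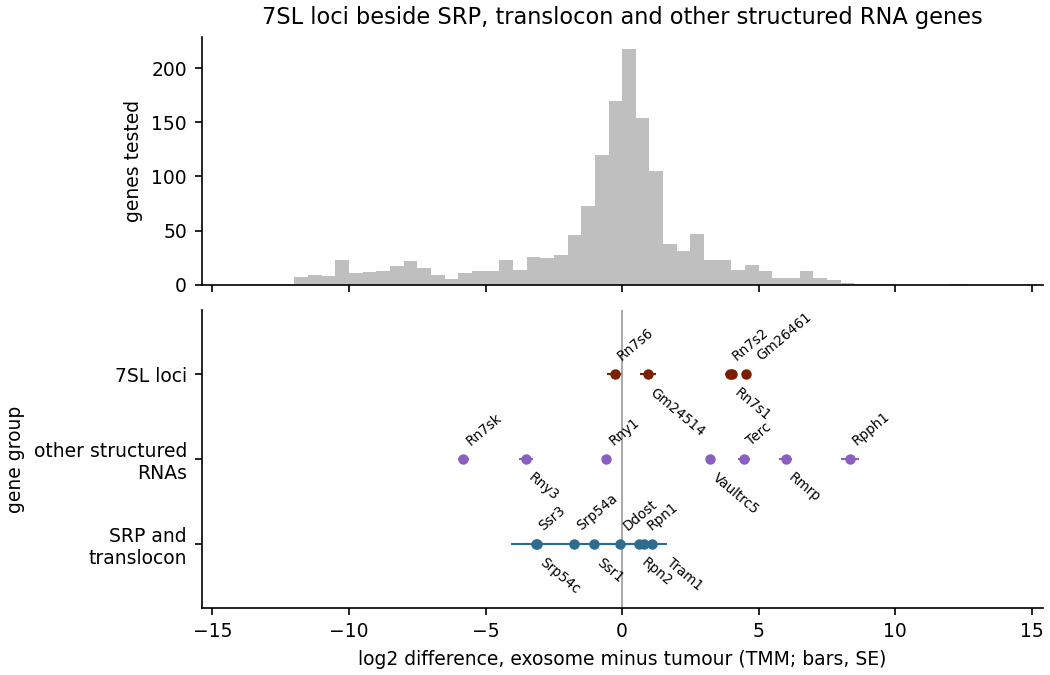
Fitted log2 differences, exosome minus tumour, for 5 7SL loci, 7 other structured RNAs and 8 SRP and translocon genes, with SE as bars, below a histogram of all 1442 tested genes. Rn7s1, Rn7s2 and Gm26461 sit between 3.93 and 4.55, within the range of −5.82 to 8.34 of the structured RNAs. They lie above the 8 protein genes, which end at 1.10.

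Rn7s1 was then set beside every other tested gene by the largest distance between their log2 CPM profiles over the 4 libraries, each centred on its own mean. The nearest of 1441 genes was Rn7s2, at 0.16. Next came Gm37086, an unclassified transcript, at 0.19, with 11 and 9 exosome counts and 1 and 0 tumour counts. The profiles use log2 CPM with a prior count of 2, which weighs on such low counts, and its fitted difference was 6.63 where Rn7s1 had 4.01. Gm25202, a small nuclear RNA gene, was at 0.22 with 138 and 89 against 52 and 28 counts, and Mir221, a microRNA gene, at 0.24 with 12 and 10 against 4 and 2. Gm23647, of rRNA biotype, was at 0.28 with 904 and 760 against 337 and 219 counts. Gm26461 ranked 17th at 0.43, Gm24514 196th at 1.58 and Rn7s6 702nd at 2.40. By this measure Rn7s6 was far down that order, and the measure rests on 4 libraries in 2 groups.

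Pieces of the sequence lie in many other transcripts. Outside small RNA genes, 118 genes had a transcript with a match to Rn7s1 (blastn, e-value up to 1e-10). The median match was 60 bases at 82.0% to 90.6% identity, 117 matches began by base 10 and all 118 ended by base 90, and 60 lay on the opposite strand. These matches fall in the part of 7SL from which B1 repeats descend. Of these genes 100 had a count, 12 were tested, 2 were called higher and 1 lower, with a median difference of 0.61 against 0.02 for all tested genes. The higher share is near the 16% of all tested genes, and 22.1% of those were lower. With library totals 10 were called higher and 0 lower, beside 63.8% and 11.5% of all tested genes. All 118 genes together had 114 and 79 exosome counts and 737 and 591 tumour counts, or 373 and 364 CPM against 50.7 and 54.5 CPM. An exact stretch of 30 bases of Rn7s1 was found in 18 genes, 8 of them with a count, which were the 7 loci in the plot of shares and Gm25687.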

How the data were processed

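Adaptors were joined to total RNA, and the products of reverse transcription and PCR were cut from a gel, per the labels' protocols, which keeps only some lengths. The authors deposited a count and an FPKM per gene for each of the 4 libraries. The counts are whole numbers without normalization. The deposited FPKM of the members equal count over gene length and library total within 0.00462%, so they carry no further correction for composition. TopHat2 2.0.9, Cufflinks 2.1.1, Cuffdiff and GRCm38.p4 are named per the submitters' processing notes. Neither the counting tool nor its strand setting is named there. Its rule for multiply matching reads, not given in the sources used here, decides how identical 7SL copies share counts.

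Symbols (46488 of 47069 IDs), positions and transcripts came from GENCODE M21. The sequences of the loci are not reported here. RefSeq's promoter table held 0 of the 3 members. Counts were tested with edgeR 4.0.16 (R 4.3.3; TMM, filterByExpr with a minimum count of 10 and total of 15, group only, Benjamini-Hochberg at 0.05 over 1442 genes). At the median library total the minimum count of 10 is 1.79 CPM, required in 2 libraries, and 1 exosome count exceeds it. The TMM factors of the exosome libraries were 2.39 and 2.91, and those of the tumour libraries 0.391 and 0.368. Each SE was taken from the F statistic, as the difference divided by the root of F. The script was tested on simulated data. For family sums, small RNA genes were joined by blastn 2.17.0 at 90% identity over 80% of the longer transcript, and Rn7s6 was added to the 7SL sum. Alternatives used DESeq2 1.42.0, limma 3.58.1 with a pseudocount of 1, other scalings and filters, thinned tumour libraries, a replicate block and each library left out. Named genes were every member and copy with a count, list members that passed the filter or had 20 counts, and the 5 genes most like Rn7s1. Members and lists were chosen with earlier results of these data known.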

Additional observations from a re-analysis of the deposited data

How the results depend on the processing

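The differences of Rn7s1, Rn7s2 and the 7SL sum kept their direction and their call under every alternative run. Rn7s6 differed by 2.52 with library totals, −2.38 with TMM factors from genes of at least 50 CPM, −1.45 with no filter, 0.17 with at least 10 counts in 2 libraries, 2.54 with limma on log2(FPKM + 1), 0.93 with thinned tumour libraries, and −2.74 to −0.033 with 1 library left out. Calls over all genes, 548 as reported, numbered 1086 with library totals, 1103 with the 50 CPM factors, 825 with no filter, 1001 with limma, 289 with thinned tumour libraries and 279 to 509 with 1 library left out. The SRP and translocon list, with 2 calls as reported, had 1 with DESeq2, 6 with the 50 CPM factors, 6 with no filter, 1 with at least 10 counts in 2 libraries, 4 with limma and 2 with either exosome library left out. None of its genes passed the filter with thinned tumour libraries or without either tumour library, so these gave no value. The structured RNA list, with 54 calls of 57 tested, had 8 of 8 with families and 24 (of 52) to 51 (of 54) with 1 library left out. Fewer genes passed the filter without a tumour library (394 or 397) and with thinning (312); beyond that the cause was not tested.

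The 7SL share of 0.812% and 0.00925% became 10.9% and 0.184% outside the dominant classes and 0.203% and 0.00231% as the mean per copy. Leaving out a library gave shares of 0.791% to 0.832% and 0.00837% to 0.0101%.

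Signs turned for some genes. Gm24514 was −1.17 with the 50 CPM factors, −0.24 with no filter and −1.38 to 1.06 with 1 library left out (−1.20 and −1.38 without tumour replicate 1 or 2), and Gm23153 was −0.84 with the 50 CPM factors. With those factors and with no filter, Tram1 was −0.95 and −0.049, Rpn1 −1.24 and −0.34 and Rpn2 −1.46 and −0.54. With library totals Srp54a was 0.98, Ssr1 1.72, Ddost 2.66 and Rny1 2.21. With limma Ssr1 was 0.34, Ddost 1.16 and Rny1 2.22. Thinning gave 0.83 for Rny1, and leaving out 1 library gave −0.14 to 0.094 for Ddost, the highest without exosome replicate 1.

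With the replicate number as a block (replicate block), Rn7s1 differed by 4.01, Rn7s2 by 3.93, Rn7s6 by −0.25 and the sum by 3.74, with 244 genes higher and 345 lower, and of the results above only Gm24514 lost its call (adjusted p 0.0712 by edgeR). Deviations of same-numbered libraries were not correlated (r = −0.02 across 1442 genes, which are not independent replicates). With 2 libraries a group and few exosome counts for many genes, this cannot tell whether same-numbered libraries came from the same tumour. In exosomes 1 count is 3.27 or 4.60 CPM, which limits what can be said of the protein-coding genes, and counts cannot separate identical copies.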
